A study of Homo sapiens with 12 samples.

Results

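The comparison described here set Caco-2 cells transfected with a non-targeting control siRNA and given 150 µM zinc (high zinc, 3 arrays) against cells with the same siRNA and 3 µM zinc (low zinc, 3 arrays). These are 6 of the 12 arrays of the study, whose other 6 hold cells transfected with siRNA against MTF1 at the same 2 zinc concentrations. Caco-2 cells are a long-established line of epithelial cells grown out of a carcinoma of the human colon. They were grown with fetal calf serum, and both groups compared were transfected with the non-targeting siRNA by lipofectamine RNAiMAX, so neither group is an untransfected culture. Total RNA was hybridised to Illumina HumanHT-12 bead arrays, 1 sample an array. MTF1 is the siRNA target in the labels of the samples, whereas the design text speaks of another gene, and the labels were followed. The sources used here give neither the time at each zinc concentration nor whether replicates are separate cultures. The p-values therefore measure only the spread between arrays within groups, estimated from all 12 arrays of the study.

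Zinc is an essential metal that many enzymes and transcription factors bind, and cells hold its free concentration very low. Excess zinc binds MTF1, a zinc-finger transcription factor, which switches on the metallothioneins, small cysteine-rich proteins that bind the metal, and SLC30A1 (ZnT1), which carries it out of the cell. Zinc in excess also reacts with protein thiols and is known to set off chaperone, antioxidant and kinase responses. Enterocytes take up dietary zinc, and differentiating Caco-2 cells make many proteins of absorptive enterocytes and of fetal liver-like epithelium, including apolipoproteins and plasma proteins.

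Levels are normalized log2 intensities of 1 probe per gene, and a change is high minus low zinc on that log2 scale with its standard error (SE) from limma. As the check that the cells met the zinc, SLC30A1 read 11.45, 11.25 and 11.24 at high zinc, against 8.60, 8.76 and 8.65 at low zinc, and all 8 measured metallothioneins passed the threshold as risen, from 3.84 for MT1F to 6.33 for MT1M, which was detected on only 1 of 3 low-zinc arrays. MT1B was detected on no low-zinc array and was at least 44.2-fold higher at high zinc. Of 17 colonic and intestinal epithelial markers 13 were detected on all 3 arrays of each group, among them EPCAM, CDH1, CDH17 and VIL1, and their mean level per array was 11.10 to 11.21 at high zinc and 11.08 to 11.15 at low zinc. LGALS4 was detected on no array. Of 16 fibroblast markers 6 were detected on all 3 high-zinc arrays and 7 on all 3 low-zinc arrays, with THY1, FAP, ZEB1, TWIST1 and CDH2 on none of the 6, and the mean level of the 7 measured was 7.20 to 7.32 at high zinc and 6.96 to 7.19 at low zinc. Of 18 immune and endothelial markers 5 and 6 were so detected, with CD3D, CD3E, CD2, NKG7, VWF, KDR and CLDN5 on none, and the mean level of the 6 measured was 7.26 to 7.41 at high zinc and 6.96 to 7.08 at low zinc. Of the immune markers CSF1R rose by 2.31, and the part of such markers in the results was not tested. Between 18969 and 19469 of 47323 probes were detected per array at high zinc and between 18343 and 18753 at low zinc. Arrays of the same group correlated at 0.9889 to 0.9906 over the features tested, and a high-zinc with a low-zinc array at 0.9729 to 0.9789.

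The response was broad and mostly of modest size. Of 14285 features tested (10584 named genes and 3701 probes without a gene name), 2573 differed between high and low zinc at an adjusted p under 0.05, which is 18.0%. Of these 1232 were higher at high zinc (8.62%) and 1341 were lower (9.39%). Changes of 1.25-fold to under 1.5-fold made up 49% of the calls, with 587 rises and 674 falls, and changes of 1.5-fold to under 2-fold another 36.5%, with 422 rises and 518 falls. Only at 3-fold and above did rises outnumber falls clearly, with 29 against 10 up to 6-fold and 27 against 0 beyond it. The median change over all features was -0.008. Quantile normalization gives all arrays the same distribution, so this median and the balance of rises and falls are in part set by it. With median centring instead, 1259 features were higher and 1017 lower. The 3 high-zinc arrays lay above all 3 low-zinc arrays for 2485 features (17.4%) and below them for 2558 (17.9%). Of the 2072 named genes past the threshold, 1043 (50.3%) also passed it with each of the 6 arrays left out in turn, and the genes named below as risen or fallen are among them unless it is stated otherwise. Without low-zinc replicate 1 the features past the threshold numbered 1607, and without high-zinc replicate 3 they numbered 1682. Where a gene had further probes, the one of highest mean stands for it, and some disagree. Of the genes named below as risen or fallen, ATP5F1D, BAX, CALD1, CAT, CCS, CEACAM1, CENPA, CTH, FGB, GALT, GAMT, KLF10, PFKFB3, PLOD2, PSMB8, RFC1 and UQCR10 had a further probe of the same sign that did not pass, as did others where stated. In cultures lysed whole, fewer cells that make a transcript and less of it per cell cannot be told apart.

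**Figure D1:**
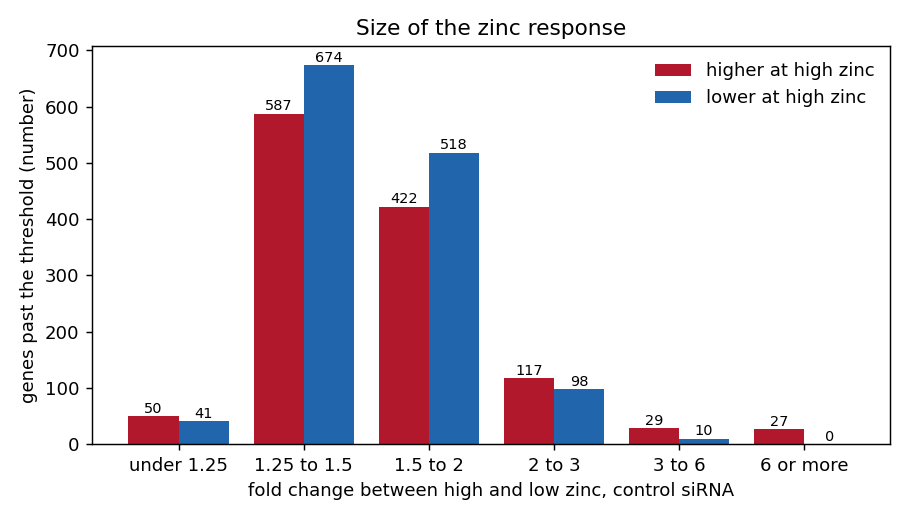
Number of genes past the threshold (adjusted p under 0.05) by fold change between high and low zinc, control siRNA, with genes higher at high zinc in red and lower at high zinc in blue. After quantile normalization, rises and falls are similar in number up to 3-fold, and the 27 changes of 6-fold or more are all rises.

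Promoter sequences are given for 6 risen genes named in the text, each picked as an example because it carries the motif given for it. They are the 250 bases before the gene start in RefSeq on GRCh38.p14, printed 5′ to 3′ on the strand of the gene, and capitals mark the motif, found on either strand. For SLC30A1 (chr1:211579162-211579411, minus strand) the motif is the metal response element (MRE) bound by MTF1, searched as TGCACNC or TGCGCNC. For FHL2 (chr2:105438514-105438763, minus strand) it is the CArG box bound by serum response factor, and for EMP1 (chr12:13196476-13196725, plus strand) the AP-1 site, searched as TGANTCA. For PPP1R15A (chr19:48872171-48872420, plus strand) it is the cyclic AMP response element (CRE), TGACGTCA, which ATF proteins bind. For ANKRD37 (chr4:185396591-185396840, plus strand) it is the core of the hypoxia response element (HRE), ACGTG, with 3 matches of which 2 overlap on opposite strands. For ECT2 (chr3:172750476-172750725, plus strand) it is the cell cycle genes homology region (CHR), searched as TTTGAA or TTCGAA.
SLC30A1: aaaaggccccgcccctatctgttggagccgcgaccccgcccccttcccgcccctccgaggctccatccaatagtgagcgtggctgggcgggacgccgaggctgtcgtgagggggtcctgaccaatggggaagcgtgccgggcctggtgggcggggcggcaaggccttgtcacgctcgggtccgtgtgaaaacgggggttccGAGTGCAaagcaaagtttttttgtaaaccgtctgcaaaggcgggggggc
FHL2: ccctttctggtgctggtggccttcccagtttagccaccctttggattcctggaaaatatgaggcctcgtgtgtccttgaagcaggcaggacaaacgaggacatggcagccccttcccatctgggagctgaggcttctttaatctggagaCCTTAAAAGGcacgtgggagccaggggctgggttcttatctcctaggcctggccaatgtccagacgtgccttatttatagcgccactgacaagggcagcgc
EMP1: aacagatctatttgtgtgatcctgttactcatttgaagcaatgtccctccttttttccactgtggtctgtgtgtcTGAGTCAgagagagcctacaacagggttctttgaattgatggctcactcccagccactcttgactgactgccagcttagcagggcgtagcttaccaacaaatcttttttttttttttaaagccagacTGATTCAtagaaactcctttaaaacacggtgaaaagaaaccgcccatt
PPP1R15A: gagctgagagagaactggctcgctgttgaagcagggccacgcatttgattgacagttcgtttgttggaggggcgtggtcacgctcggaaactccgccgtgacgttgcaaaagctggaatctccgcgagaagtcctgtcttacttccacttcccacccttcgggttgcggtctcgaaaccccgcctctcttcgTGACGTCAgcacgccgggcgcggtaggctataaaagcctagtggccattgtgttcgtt
ANKRD37: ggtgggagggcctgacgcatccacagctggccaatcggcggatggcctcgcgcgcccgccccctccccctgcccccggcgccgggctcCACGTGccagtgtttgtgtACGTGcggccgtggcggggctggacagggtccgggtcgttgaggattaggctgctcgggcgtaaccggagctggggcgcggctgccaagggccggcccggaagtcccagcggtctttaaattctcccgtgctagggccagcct
ECT2: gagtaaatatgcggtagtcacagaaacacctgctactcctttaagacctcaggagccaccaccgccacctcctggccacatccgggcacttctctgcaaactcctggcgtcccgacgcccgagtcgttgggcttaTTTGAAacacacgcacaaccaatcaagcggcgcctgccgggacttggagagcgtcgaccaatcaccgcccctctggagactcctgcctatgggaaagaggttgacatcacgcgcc

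Over all 8535 measured named genes with a RefSeq promoter, searched from 250 bases before to 50 bases after the start, 38.9% held an MRE. Among called genes that rose 3-fold or more 13 of 25 did (52%), but among those that rose 1.5-fold to under 3-fold 111 of 306 did (36.3%) and among those that fell by as much 129 of 371 (34.8%). The mid-sized rises thus held an MRE about as often as measured genes at large. AP-1 sites stood in 9.8% of the mid-sized rises (30 of 306) and CREs in 6.21% (19 of 306), against 4.35% and 3.4% of all measured genes, and in 5.12% and 1.89% of the mid-sized falls. Other motifs searched were also compared. In the mid-sized rises the HRE core stood in 28.4% against 27.4% of all measured genes, and the CHR in 17% against 11.7%. CArG boxes stood in 2.29% against 0.996%, TGATGNAA in 2.61% against 1.65% and heat shock elements in 1.31% against 0.293%. A match of letters describes the sequence and does not show that a factor binds there.

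Among the mid-sized responses (1.5-fold to under 3-fold, with the arrays of the groups not overlapping), 415 named genes rose and 489 fell, and the 15 of smallest p-value in each direction are described here. The rise with the smallest p-value was that of ATF3, a stress-induced transcription factor of the ATF/CREB family. ATF3 read 10.26, 10.14 and 10.15 at high zinc, against 8.67, 8.65 and 8.68 at low zinc. The high-zinc arrays lay close together and far above the low-zinc arrays, a 2.86-fold difference (1.52 ± 0.08, limma adjusted p = 2.77e-07). PPP1R15A (GADD34), which directs the phosphatase that removes the stress mark from the translation factor eIF2α, read 11.66, 11.61 and 11.87 at high zinc, against 10.56, 10.35 and 10.40 at low zinc. All high-zinc arrays were above the low-zinc arrays (1.28 ± 0.10, adjusted p = 9.97e-06). RASD1, a Ras-like GTPase induced by glucocorticoids, rose 2.54-fold, IRS2, an adaptor of the insulin receptor, 2.06-fold, and the immediate early gene IER5 2.34-fold.

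Several of the mid-sized rises encode proteins of the cell surface and the cortex. EMP1, a membrane protein of 4 spans whose promoter is printed above with its 2 AP-1 sites, read 8.86, 8.97 and 9.04 at high zinc, against 7.49, 7.74 and 7.44 at low zinc. It stood 2.64-fold higher at high zinc, without overlap (adjusted p = 4.54e-06). ANXA1, an annexin that binds phospholipids in the presence of calcium, rose 2.98-fold, FSCN1, which bundles actin filaments, 2.17-fold, and the adhesion molecule CEACAM6 2.18-fold. OLR1, a receptor for oxidised low-density lipoprotein, read 10.46, 10.48 and 10.48 at high zinc, against 9.49, 9.53 and 9.57 at low zinc. This 1.92-fold rise, without overlap, was the smallest of the 15. The rest of the 15 were the lysosomal sulfatase IDS (2.88-fold), the zinc-finger gene ZNF165 (2.60-fold), the long non-coding RNA UCA1 (2.38-fold), the cytidine deaminase APOBEC3B (2.12-fold) and FHL2, which is taken up with the cytoskeletal genes below. IDS has a further probe with a change of 1.23.

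The fall with the smallest p-value was that of CXCL12, a chemokine that attracts leukocytes through CXCR4. CXCL12 read 8.64, 8.58 and 8.51 at high zinc, against 10.04, 10.31 and 10.12 at low zinc. Its high-zinc arrays all lay below the low-zinc arrays, 2.98-fold lower (-1.58 ± 0.09, adjusted p = 6.63e-07). ABCA1, which loads cholesterol onto apolipoprotein A-I, read 7.43, 7.50 and 7.71 at high zinc, against 8.93, 9.04 and 8.75 at low zinc. It was 2.57-fold lower without overlap (adjusted p = 8.35e-06). APOB, the scaffold protein of chylomicrons and low-density lipoproteins, was 2.02-fold lower, and AADAC, a lipase of the endoplasmic reticulum, 2.80-fold lower. MYO1A, the brush border myosin, was 2.31-fold lower, and SGPP2, which removes phosphate from sphingosine 1-phosphate, 2.77-fold lower. ATP7B, the copper pump mutated in Wilson disease, read 9.16, 9.18 and 9.00 at high zinc, against 10.05, 10.21 and 10.11 at low zinc. The groups were again apart, with ATP7B 2.02-fold lower at high zinc (adjusted p = 2.98e-05). The conjugating enzymes GSTA1 and SULT2A1, the sialyltransferase ST6GAL1 (1.98-fold lower), the mitochondrial D-2-hydroxyglutarate dehydrogenase D2HGDH (2.47-fold), the histone H2BC5 (2.27-fold), the uroplakin UPK1A (2.24-fold), the rhomboid-like gene RHBDL3 (2.80-fold) and the methyltransferase-like gene TMT1B (2.11-fold) made up the rest. All 30 of these genes passed the threshold with each array left out in turn, and under every other setting in which they had a value. SGPP2 had none with the stricter filter on dim probes.

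**Figure D2:**
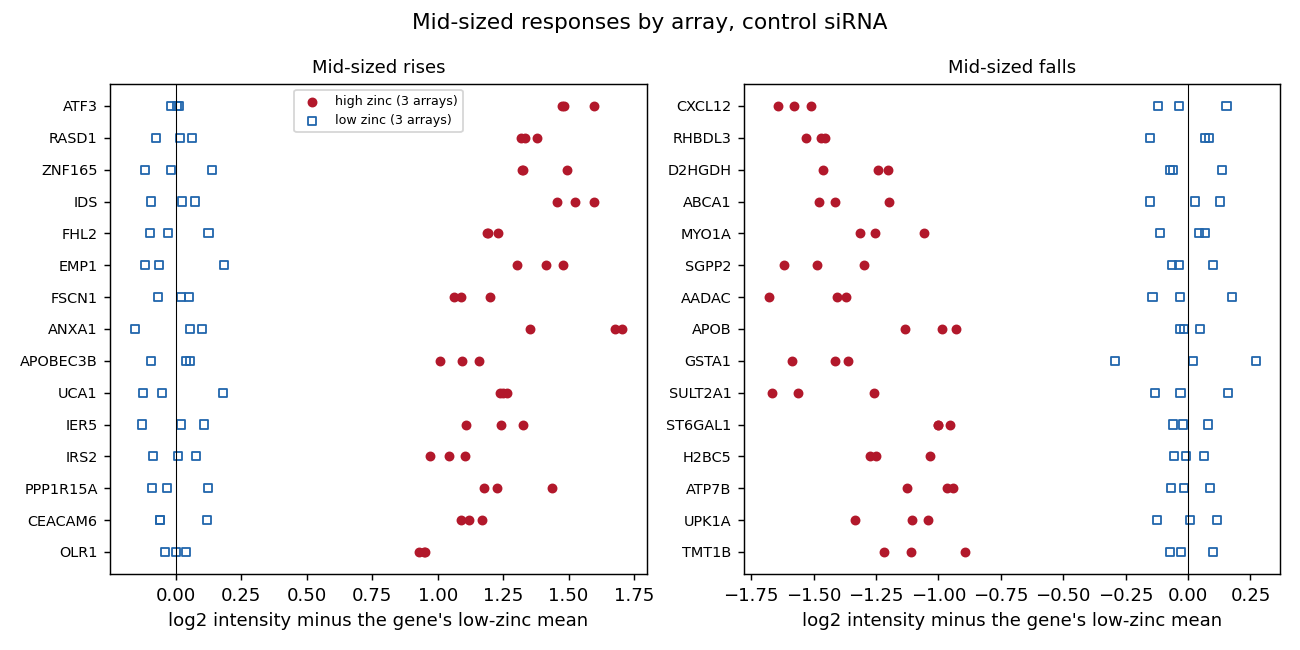
Log2 intensity of the 15 mid-sized rises (left) and 15 mid-sized falls (right) of smallest p-value on each control siRNA array, minus the gene's mean over the 3 low-zinc arrays. Filled circles are the 3 high-zinc arrays and open squares the 3 low-zinc arrays, and no gene shown has overlapping groups.

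The gene lists whose members moved in 1 direction most often, or whose median was furthest from that of all features, are described in turn, beginning with those that rose. Serum response factor (SRF) with its actin-sensing partners, and the coactivator YAP, drive genes of the contractile cytoskeleton and of cell-matrix contact. Of 33 measured members of that list 14 rose (42.4%, against 8.62% of all features) and none fell, with a median of 0.28, and 13 of the 14 rose with each array left out in turn. SRF itself, which is not a member of the list, fell by 0.34. The SRF call was lost with median centring, and without high-zinc replicate 2 or 3 or low-zinc replicate 1 or 3. CCN2, a matricellular protein and YAP target, read 8.89, 8.81 and 8.87 at high zinc, against 7.22, 6.98 and 6.91 at low zinc. CCN1, its relative, read 8.25, 8.38 and 8.36 at high zinc, against 6.96, 7.15 and 7.23 at low zinc. Both had all high-zinc arrays above the low-zinc arrays, with rises of 3.54-fold and 2.32-fold (adjusted p = 3.82e-07 and 1.33e-05). The smooth muscle actins ACTA2 and ACTG2 rose by 1.76 and 1.14, and TAGLN, an actin-binding protein of smooth muscle, read 12.12, 12.13 and 12.12 at high zinc, against 10.63, 10.41 and 10.49 at low zinc. Its 3 high-zinc arrays were nearly equal and all above the low-zinc arrays (3.05-fold, adjusted p = 5.66e-07).

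FHL2, a LIM-domain partner of SRF whose CArG box is printed above, read 11.74, 11.78 and 11.74 at high zinc, against 10.52, 10.45 and 10.68 at low zinc. It was 2.31-fold higher without overlap (adjusted p = 3.15e-06). ANKRD1 (1.04), the focal adhesion protein TES (0.85), caldesmon CALD1 (0.73), tropomyosin TPM1 (0.62) and ZYX (0.49) rose by less, and of the further TPM1 probes 1 changed by 0.08. The cytoplasmic actin ACTB (0.23), MYH9 (-0.01) and VCL (0.14) did not pass, nor did ACTG1 (0.12), though a further ACTG1 probe rose by 0.50 (adjusted p = 0.0189). CArG boxes stood in 5 of 28 promoters of the list (17.9%) and in 2 of 12 of its risen members (16.7%), against 0.996% of measured genes. These shares describe a list of SRF and YAP targets and not its response. Of 21 tubulins and tubulin folding genes 5 rose (23.8%, against 8.62% of all features) and 3 fell (14.3%, against 9.39%). TUBA4A (0.95), TUBB3 (0.80), TUBB2A (0.69) and TUBB2B (0.58) were higher. The count of fallen members was 1 without high-zinc replicate 2, high-zinc replicate 3 or low-zinc replicate 1. The ubiquitous TUBB (0.08), TUBA1B (-0.08) and TUBB4B (-0.16) did not pass. The integrin subunit ITGA2 rose by 1.23 and the fibrillar collagen COL5A1 by 1.08.

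Hypoxia-inducible factors (HIF) are degraded when prolyl hydroxylases, which need oxygen and iron, mark them for the VHL ubiquitin ligase. Of 27 measured HIF target genes 14 rose (51.9%) and 2 fell, with a median of 0.40, and 11 of the 14 rose with each array left out in turn. ADM, the vasodilator peptide adrenomedullin, read 11.51, 11.44 and 11.42 at high zinc, against 9.70, 9.49 and 9.59 at low zinc. KDM3A, a histone demethylase, read 7.61, 8.11 and 7.95 at high zinc, against 6.77, 6.81 and 6.68 at low zinc. EGLN1, the prolyl hydroxylase PHD2 itself, read 7.18, 7.42 and 7.49 at high zinc, against 6.09, 6.21 and 6.64 at low zinc. The high-zinc arrays were above the low-zinc arrays for each, by 3.63-fold, 2.20-fold and 2.07-fold (adjusted p = 5.66e-07, 1.75e-04 and 4.71e-04). The collagen prolyl hydroxylase subunits P4HA1 (1.00) and P4HA2 (0.81), the lysyl hydroxylase PLOD2 (0.49), the circadian repressor BHLHE40 (0.99) and the mitophagy receptors BNIP3 (0.69) and BNIP3L (0.54) rose with them.

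ANKRD37, whose promoter is printed above, rose by 0.98, with 2 of the 3 low-zinc arrays above background. NDRG1 fell by 0.42 and VHL by 0.43, with VHL not past the threshold when only the 2 groups compared were fitted and its further probes at -0.23 and -0.05. Members that did not pass include VEGFA (0.23), SLC2A1 (0.33), CA12 (-0.42) and ANGPTL4 (0.38), though a further ANGPTL4 probe rose by 0.63 (adjusted p = 0.0270). An ACGTG core stood in 12 of 21 promoters of the list (57.1%) and in 8 of 12 of its risen members, against 27.4% of measured genes. These shares describe a list of HIF targets and not its response. Of 34 genes of glycolysis and gluconeogenesis 5 rose and 5 fell (14.7% each, against 8.62% and 9.39% of all features). Among them PFKFB3, which makes the activator of phosphofructokinase, rose by 0.89 and LDHA by 0.47, while the galactose enzymes GALT and GALK1 fell by 0.59 and 0.49, and GAPDH (0.07), PKM (0.10) and PGK1 (0.14, a further probe 0.43, adjusted p = 0.0139) did not pass on the probes used. The count of risen glycolytic genes was 2 without high-zinc replicate 3 or low-zinc replicate 3 and 3 without low-zinc replicate 1 or 2, and that of fallen ones was 2 without low-zinc replicate 1 and 3 without high-zinc replicate 2, low-zinc replicate 2 or low-zinc replicate 3.

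Mitosis genes moved by small and similar steps. Of 56 measured 19 rose (33.9%) and 1 fell (KIF22, which did not pass without high-zinc replicate 2, high-zinc replicate 3 or low-zinc replicate 1), 48 of 56 had a positive change, and the median was 0.25. NEK2, a centrosomal kinase, read 9.91, 9.86 and 9.91 at high zinc, against 9.14, 9.20 and 8.87 at low zinc. ECT2, the exchange factor that activates RhoA for cytokinesis and whose CHR is printed above, read 9.33, 9.27 and 9.25 at high zinc, against 8.50, 8.67 and 8.37 at low zinc. CDK1, the kinase that drives entry into mitosis, read 11.75, 11.50 and 11.71 at high zinc, against 11.12, 11.23 and 11.24 at low zinc. The groups did not overlap in any of these, and the rises were 1.77-fold, 1.70-fold and 1.37-fold (adjusted p = 4.95e-04, 0.00122 and 0.00696). Cyclin A2 (CCNA2, 0.60), the centromeric histone CENPA (0.55), DLGAP5 (0.53), CDCA5 (0.49), NCAPG (0.48) and NUSAP1 (0.41) rose likewise, while CCNB1 (0.33), PLK1 (0.14), CDC20 (0.15) and AURKB (-0.03) did not pass.

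The count of risen mitosis genes depended on single arrays. It was 9 without high-zinc replicate 3, 12 without high-zinc replicate 2, and 11 without low-zinc replicate 1 or without low-zinc replicate 3, and the 9 members named here as risen passed in each of these fits. CHR letters stood in 38 of 49 promoters of the list (77.6%), against 11.7% of measured genes, which describes the list and not its response. Of 51 DNA replication genes 5 rose (9.8%, near the 8.62% of all features) and none fell, with a median of 0.18. These counts depended on the setting, with 9 higher and 3 lower without background correction and with the trend and robust fit, 8 and 3 on the authors' log2 values, 10 and 3 of 48 with the stricter filter on dim probes, and 2 and 0 of 55 with none. RFC1, of the clamp loader, rose by 0.54, and CDC6, which loads the replicative helicase, by 0.52, though CDC6 did not pass without background correction. In contrast, MCM2 (0.15), MCM5 (-0.02) and POLA1 (-0.10) did not pass. The count was 3 without high-zinc replicate 3, low-zinc replicate 2 or low-zinc replicate 3 and 2 without low-zinc replicate 1. CDKN1A (p21), the inhibitor of cyclin-dependent kinases, read 9.43, 9.19 and 9.29 at high zinc, against 8.38, 8.16 and 8.27 at low zinc. It rose 2.04-fold, while CDKN1C (-0.76) and the pro-apoptotic BAX (-1.08, a further probe -0.41) fell. Of 32 p53-linked genes 8 rose (25%, against 8.62% of all features) and 2 fell (6.25%, against 9.39%).

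**Figure D3:**
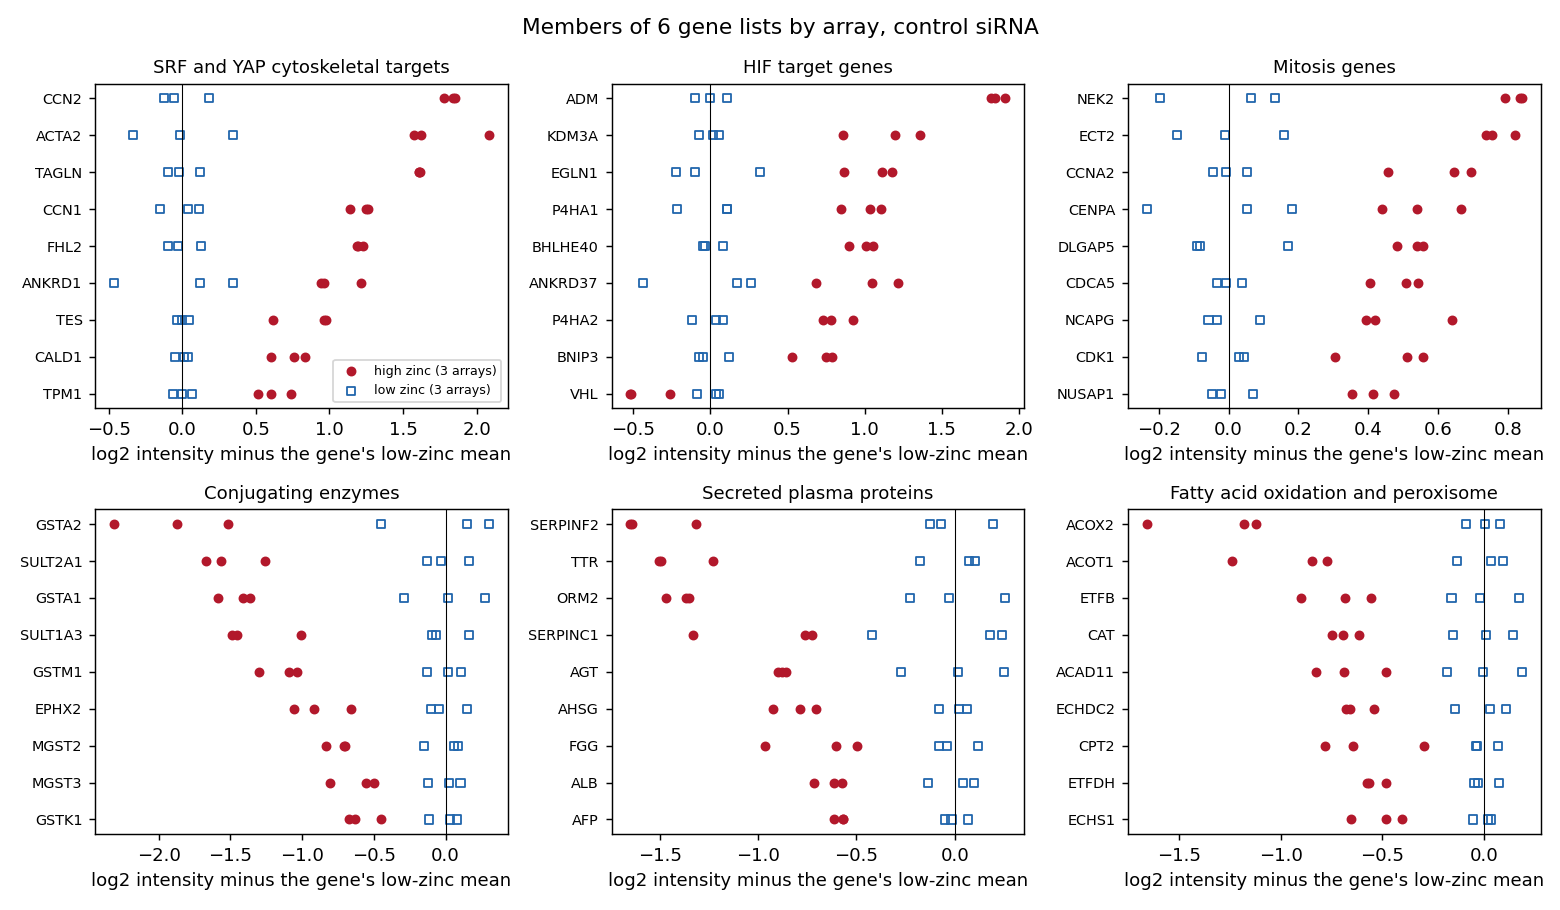
Log2 intensity on each control siRNA array minus the gene's low-zinc mean, for 9 members past the threshold of each of 6 lists, picked after their values were seen. Filled circles are the 3 high-zinc arrays and open squares the 3 low-zinc arrays. The upper panels hold lists with mostly risen members and the lower panels lists with mostly fallen ones, and the horizontal scales differ between panels.

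Chaperone genes rose beyond the well-known HSP70 genes. HSP70 proteins fold clients with the help of J-domain (DNAJ) partners, which deliver the client. Of 24 measured DNAJ genes 8 rose (33.3%) and none fell, with a median of 0.28, beside 8 of 12 HSP70 and HSP110 genes. DNAJB1, the main partner of cytosolic HSP70, read 11.00, 10.73 and 10.96 at high zinc, against 9.72, 9.70 and 9.87 at low zinc. DNAJC3, which acts in the endoplasmic reticulum, read 8.04, 8.10 and 8.26 at high zinc, against 7.05, 6.99 and 7.34 at low zinc. All high-zinc arrays were above the low-zinc arrays, with rises of 2.20-fold and 2.01-fold (adjusted p = 6.40e-05 and 3.82e-04). DNAJB9 (0.57), DNAJA1 (0.46) and DNAJB11 (0.41) rose by less. DNAJA4 and DNAJB4 were not above background on any low-zinc array and were at least 2.20-fold and 1.33-fold higher at high zinc (adjusted p = 2.31e-04 and 0.0115). Kept without detection at low zinc, they could hardly have counted as fallen. Under the other settings 7 to 9 DNAJ genes rose.

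Among HSP70 relatives of moderate change, HSPA13 rose by 0.97, the disaggregase partner HSPH1 by 0.82 and HSPA4L by 0.67, whereas the constitutive HSPA8 (0.31) and mitochondrial HSPA9 (0.28) did not pass. In the endoplasmic reticulum the luminal chaperone HSPA5 (BiP) read 9.25, 9.38 and 9.36 at high zinc, against 9.73, 9.43 and 9.63 at low zinc. Its high-zinc arrays lay just below the low-zinc arrays, and the change of -0.27 ± 0.10 did not pass (adjusted p = 0.0853). HYOU1 (0.10), PDIA4 (0.10) and XBP1 (0.18) did not pass either. CALR, a calcium-binding luminal chaperone, fell by 0.58. The list had 6 members higher and 2 lower of 20, and its count of risen members was 1 without low-zinc replicate 1, 2 without high-zinc replicate 2 or low-zinc replicate 3 and 3 without high-zinc replicate 3. With each of these 4 arrays left out in turn 1 member was lower. ZFAND2A (AIRAP), an arsenite-inducible partner of the proteasome, rose by 1.10 and the autophagy receptor SQSTM1 by 0.50.

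Genes linked to amino acid supply moved in both directions. ATF4, translated when eIF2α is phosphorylated, drives stress regulators together with enzymes and transporters for amino acids. Of 18 measured stress regulators 9 rose (50%) and none fell, DDIT4, DDIT3, TRIB3 and GDF15 among them with changes of 1.82, 0.83, 0.76 and 0.74. Of 18 genes of serine, asparagine, proline and one-carbon synthesis 5 rose (27.8%, against 8.62% of all features) and 2 fell (11.1%, against 9.39%). CTH, which makes cysteine from cystathionine, read 7.55, 7.62 and 7.64 at high zinc, against 6.50, 6.95 and 6.83 at low zinc. ASNS, asparagine synthetase, read 11.26, 10.91 and 11.31 at high zinc, against 10.55, 10.37 and 10.56 at low zinc. MTHFD2, the mitochondrial folate dehydrogenase, read 10.63, 10.51 and 10.46 at high zinc, against 9.85, 9.97 and 9.65 at low zinc. Each had its high-zinc arrays above the low-zinc arrays (1.79-fold, 1.59-fold and 1.64-fold, adjusted p = 4.27e-04, 0.00356 and 6.40e-04). GOT1 (0.57) and SHMT2 (0.41) rose as well. The entry enzymes of serine synthesis did not pass: PHGDH changed by 0.03, PSAT1 by 0.23 and PSPH by -0.12. CBS, which precedes CTH on the way to cysteine, fell by 0.47.

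Of 23 measured amino acid transporters 2 rose (8.7%, near the 8.62% of all features) and 5 fell (21.7%, against 9.39%). The count of fallen transporters was 3 without low-zinc replicate 1. At low zinc no array detected SLC7A11, the light chain of the cystine importer, which was at least 2.15-fold higher at high zinc (adjusted p = 1.62e-05), and its heavy chain SLC3A2 rose by 0.57. The apical cystine and dibasic amino acid importer went the other way. Its light chain SLC7A9 fell by 0.61, and its heavy chain SLC3A1 was not above background at high zinc and at least 1.82-fold lower there (adjusted p = 1.38e-04). SLC7A2, a cationic amino acid importer, fell by 0.66, and SLC7A5 (0.11) and SLC1A5 (0.00) did not pass. Of 18 cytosolic aminoacyl-tRNA synthetases 5 rose and 1 fell, led by WARS1 (0.68) and SARS1 (0.54), and of 16 mitochondrial ones none rose and 1 fell. The cytosolic count was 2 without low-zinc replicate 1 and 3 without high-zinc replicate 1, high-zinc replicate 3 or low-zinc replicate 3.

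Glutathione and thioredoxin genes driven by NRF2 rose in part. Of 43 measured 12 rose (27.9%) and 1 fell, with a median of 0.08. TXNRD1, thioredoxin reductase, read 10.02, 9.87 and 9.80 at high zinc, against 9.09, 9.10 and 9.16 at low zinc. SRXN1, which repairs over-oxidised peroxiredoxins, read 10.70, 10.47 and 10.54 at high zinc, against 9.66, 9.61 and 9.79 at low zinc. Both were higher on every high-zinc array, by 1.71-fold and 1.84-fold (adjusted p = 8.19e-04 and 9.13e-05). HMOX1, which degrades haem, rose 2.13-fold, and the glutathione synthesis subunit GCLM 1.70-fold, though a further GCLM probe changed by 0.05. The peroxiredoxin PRDX1 (-0.17) and the glutathione peroxidases GPX1 (-0.24) and GPX4 (-0.22) did not pass, and catalase (CAT) fell by 0.69. The count of risen members was 7 without high-zinc replicate 2 or 3, 6 without low-zinc replicate 3 and 5 without low-zinc replicate 1.

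Early response genes and the feedback inhibitors of growth factor signalling rose together with the AP-1 genes, of which 6 of 9 rose. Of 33 further early genes 15 rose (45.5%) and 2 fell. KLF6, a zinc-finger factor induced by injury, read 11.08, 10.68 and 10.89 at high zinc, against 9.98, 9.89 and 9.77 at low zinc. KLF4, a factor of intestinal epithelial differentiation, read 8.06, 8.81 and 8.10 at high zinc, against 7.28, 7.41 and 7.31 at low zinc. Both were apart from the low-zinc arrays (2.01-fold and 1.98-fold, adjusted p = 1.55e-04 and 0.00359). ZFP36, which destabilises AU-rich mRNAs, rose by 0.96, RHOB by 1.01, KLF10 by 0.75 and IER3 by 0.58, while MYC (0.10), IER2 (-0.21) and ID2 (0.01) did not pass. Of 23 phosphatases and feedback inhibitors of MAP kinases 8 rose (34.8%) and 1 fell. DUSP1, which dephosphorylates p38, JNK and ERK, read 9.79, 9.77 and 9.58 at high zinc, against 8.42, 8.02 and 8.24 at low zinc. DUSP5, which acts on ERK, read 10.74, 10.76 and 10.83 at high zinc, against 9.63, 10.04 and 10.01 at low zinc. Their rises were 2.80-fold and 1.84-fold without overlap. TRIB1 (0.82), SPRED2 (0.58) and ERRFI1 (0.45), the last an inhibitor of the EGF receptor, rose too, and the EGF receptor ligand HBEGF rose by 1.61. The count of risen inhibitors was 5 without low-zinc replicate 3.

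Structured RNAs made by RNA polymerase III, or by polymerase II without a poly(A) tail, had the highest share of risen members after the metallothioneins, 19 of 26 measured (73.1%) with 1 fallen and a median of 1.18. Beyond the U3 RNAs, RPPH1, the RNA subunit of RNase P that trims tRNA ends, read 8.70, 8.70 and 9.14 at high zinc, against 5.61, 6.29 and 5.62 at low zinc. RN7SK, which holds the elongation kinase P-TEFb inactive, read 10.42, 10.44 and 10.73 at high zinc, against 7.33, 7.30 and 7.63 at low zinc. The groups were far apart, 8.04-fold and 8.65-fold (adjusted p = 7.07e-07 and 3.13e-08). RMRP, the RNA of a related nuclease, and the vault RNA VTRNA1-1 were detected on no low-zinc array. RMRP was at least 4.53-fold higher at high zinc and VTRNA1-1 at least 2.66-fold higher. The minor spliceosome RNA RNU6ATAC rose by 1.77, RNU6-1 by 1.12 and RNU1-1 by 1.24, and the snoRNA SNORD13 by 0.75. RNY3 (0.08) did not pass, nor did SNORA73B (0.17), whose further probe fell (-0.88, adjusted p = 0.0128). A probe could enter through a group where it is high. RMRP and VTRNA1-1 entered without detection on any low-zinc control siRNA array and could hardly have counted as fallen. The share of risen members thus rests in part on the filter. With the stricter filter on dim probes, a detection p under 0.01 on every array, 8 members rose. Copies of these RNAs are near-identical and probes may share them. The labelling kit that the labels name starts cDNA from an oligo(dT) primer, and the part of this in the result was not tested. Of 14 long RNAs that host snoRNAs or stay in the nucleus none rose and 1 fell (SNHG1 -0.01, ZFAS1 -0.12, TUG1 0.06 among those that did not pass).

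Conjugating enzymes attach glutathione, sulfate or glucuronic acid to drugs, steroids and bile acids. The list also holds epoxide hydrolases, which do not conjugate. Of 25 measured 15 fell (60%, against 9.39% of all features) and 1 rose, with a median of -0.62, and 11 to 16 fell with any 1 array left out. The risen member, UGT1A6 (0.43), lost its call with any of the 5 arrays other than high-zinc replicate 1 left out, and a further UGT1A6 probe read 0.07. SULT2A1, which sulfonates bile acids and steroids, read 6.31, 6.00 and 5.90 at high zinc, against 7.43, 7.73 and 7.54 at low zinc. GSTA1, a glutathione transferase, read 7.32, 7.27 and 7.09 at high zinc, against 8.95, 8.70 and 8.39 at low zinc, and its relative GSTA2 read 7.42, 7.07 and 6.63 at high zinc, against 9.09, 9.24 and 8.49 at low zinc. All 3 were lower on every high-zinc array, by 2.82-fold, 2.74-fold and 3.73-fold (adjusted p = 2.70e-05, 2.70e-05 and 1.58e-04). Probes of GSTA1 and GSTA2, of GSTM1 and GSTM2 and of the SULT1A genes may cross-hybridise.

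Membrane-bound glutathione transferases fell too, MGST2 by 0.75 and MGST3 by 0.62, as did the peroxisomal and mitochondrial GSTK1 (-0.59), GSTM1 (-1.14), SULT1A3 (-1.32) and the epoxide hydrolase EPHX2 (-0.88). UGT2A3 fell by 0.99 and was detected on 1 of 3 high-zinc arrays. The members that did not pass include the abundant GSTP1 (-0.14), MGST1 (-0.15), EPHX1 (0.05) and SULT1A1 (-0.12), though a further SULT1A1 probe fell (-1.09, adjusted p = 0.00272). Oxidoreductases that act before conjugation were mixed, with 4 higher and 8 lower of 31 (12.9% and 25.8%, against 8.62% and 9.39% of all features). HSD17B2, which inactivates oestradiol and testosterone, read 5.98, 5.49 and 5.43 at high zinc, against 7.27, 7.35 and 7.18 at low zinc. It was 3.11-fold lower at high zinc (adjusted p = 9.09e-06), whereas the aldo-keto reductase AKR1C2 rose 2.00-fold, and CYP1A1 (0.15) and ALDH2 (0.02) did not pass. The count of fallen members was 4 without high-zinc replicate 2 and 5 without high-zinc replicate 3, low-zinc replicate 1 or low-zinc replicate 3, and that of risen members was 2 without high-zinc replicate 1, high-zinc replicate 3, low-zinc replicate 1 or low-zinc replicate 3.

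Plasma proteins, which the liver secretes and Caco-2 cells also make, fell broadly. Of 35 measured 19 fell (54.3%) and 1 rose, with a median of -0.49. ALB, albumin, read 10.63, 10.53 and 10.67 at high zinc, against 11.34, 11.28 and 11.10 at low zinc. TTR, the carrier of thyroxine and retinol-binding protein, read 8.29, 8.56 and 8.30 at high zinc, against 9.87, 9.62 and 9.90 at low zinc. SERPINF2, the inhibitor of plasmin, read 5.33, 5.66 and 5.32 at high zinc, against 6.84, 6.90 and 7.16 at low zinc. All lay lower on every high-zinc array, by 1.55-fold, 2.66-fold and 2.90-fold (adjusted p = 0.00134, 0.00101 and 5.63e-05). Antithrombin SERPINC1 (-0.94), angiotensinogen AGT (-0.88), fetuin AHSG (-0.81), fibrinogen FGG (-0.69) and FGB (-0.43), AFP (-0.58), transferrin TF (-0.67) and SERPINA1 (-0.53) fell, and ORM1 was not above background at high zinc and at least 2.33-fold lower there (adjusted p = 5.81e-04). Complement C5 rose by 0.69, and SERPINA3 (0.35), CFB (-0.24) and F12 (0.10) did not pass.

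Apolipoproteins and the machinery that loads them with lipid fell alongside, 14 of 23 (60.9%) with none risen and a median of -0.51. APOC3, which slows lipolysis of triglyceride-rich particles, read 6.90, 6.67 and 6.65 at high zinc, against 8.38, 7.83 and 8.46 at low zinc. RBP2, which carries retinol in the enterocyte, read 8.05, 7.79 and 7.34 at high zinc, against 9.64, 9.35 and 9.21 at low zinc. Both were lower on every high-zinc array, by 2.80-fold and 3.18-fold (adjusted p = 0.00136 and 1.58e-04). APOM fell by 1.02, APOC1 by 1.00 and the triglyceride synthase DGAT1 by 0.94, and the lipid droplet protein CIDEB was at least 1.49-fold lower. APOE (-0.01), SCARB1 (-0.03) and PLIN2 (0.07) did not pass. Enterocyte structure was mixed. Of 17 brush border genes 4 fell (23.5%, against 9.39% of all features) and 2 rose (11.8%, against 8.62%), with a median of -0.02. The disaccharidase SI (-1.22), the metalloprotease MEP1A (-0.88) and MYO1A fell, and the adhesion molecules CEACAM6 (1.13) and CEACAM1 (0.74) rose. With the stricter filter on dim probes 1 member fell. Of 21 Notch and secretory lineage genes 3 fell and 3 rose (14.3% each, against 9.39% and 8.62% of all features). The trefoil peptides TFF3 (-1.77) and TFF2 (-1.08), secreted by goblet and gastric cells, fell, and the Notch ligand DLL1 (0.59) rose. DPP4 (0.23), VIL1 (-0.22) and the lineage factors CDX1 (0.01), CDX2 (-0.15) and FOXA2 (0.32) did not pass.

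Enzymes that burn fatty acids in mitochondria and peroxisomes were next. Of 43 measured 16 fell (37.2%), none rose and 38 had a negative change, with a median of -0.30. ACOX2, the peroxisomal oxidase of branched chains and bile acid intermediates, read 6.38, 6.32 and 5.85 at high zinc, against 7.51, 7.58 and 7.42 at low zinc. ETFB, which passes electrons from acyl-CoA dehydrogenases to the respiratory chain, read 10.69, 10.82 and 10.48 at high zinc, against 11.55, 11.36 and 11.22 at low zinc. CPT2, which releases fatty acids from carnitine inside mitochondria, read 7.55, 8.04 and 7.69 at high zinc, against 8.40, 8.30 and 8.30 at low zinc. The groups did not overlap, and the falls were 2.50-fold, 1.64-fold and 1.49-fold (adjusted p = 1.21e-04, 0.00237 and 0.0123). ACOT1 (-0.95), ACAD11 (-0.67), ECHDC2 (-0.63), ETFDH (-0.54) and ECHS1 (-0.51) fell too. The trifunctional protein subunits HADHA (-0.20) and HADHB (-0.26), and ACADVL (0.03) did not pass. The rate-limiting CPT1A (0.14) did not pass either, but a further CPT1A probe rose by 0.64 (adjusted p = 0.00688).

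Nitrogen disposal fell in part. Of 23 genes of polyamine and urea metabolism 10 fell and 2 rose. CPS1, which starts the urea cycle in mitochondria, read 7.60, 7.59 and 7.51 at high zinc, against 9.11, 9.12 and 9.37 at low zinc. Its high-zinc arrays were all below, 3.10-fold (adjusted p = 6.10e-07). PRODH (-0.90), proline dehydrogenase, and GAMT (-0.71), which makes creatine, fell too. SAT1, which acetylates polyamines for export, read 11.64, 11.39 and 11.47 at high zinc, against 10.46, 10.64 and 10.50 at low zinc, 1.96-fold higher at high zinc (adjusted p = 1.30e-04), and the spermine synthase SMS rose by 0.42. ODC1 (0.24) and ARG2 (0.11) did not pass. The count of fallen members was 6 without high-zinc replicate 2, high-zinc replicate 3 or low-zinc replicate 1 and 5 without low-zinc replicate 2.

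Respiratory complex I takes electrons from NADH and is built of catalytic core subunits and many accessory ones. Of 38 measured subunits and assembly factors 18 fell (47.4%, against 9.39% of all features), none rose, 36 had a negative change and the median was -0.42. NDUFA13, an accessory subunit also known as GRIM-19, read 9.23, 9.09 and 9.05 at high zinc, against 10.35, 9.97 and 10.09 at low zinc. NDUFB7, an accessory subunit of the membrane arm, read 10.11, 10.09 and 10.23 at high zinc, against 11.26, 10.81 and 11.28 at low zinc. NDUFS7, a core subunit that carries the last iron-sulfur cluster, read 9.44, 9.37 and 9.07 at high zinc, against 10.16, 9.95 and 10.14 at low zinc. All high-zinc arrays lay below the low-zinc arrays, by 2.02-fold, 1.96-fold and 1.73-fold (adjusted p = 0.00494, 0.00369 and 0.00263). NDUFB11 (-1.01), NDUFB10 (-0.73), NDUFA12 (-0.71), NDUFA2 (-0.62) and NDUFB8 (-0.56) fell as well. The larger core subunits NDUFS1 (0.01), NDUFV1 (-0.02) and NDUFV2 (-0.04) and the accessory NDUFA9 (-0.13) did not pass. The count of fallen members was 10 without low-zinc replicate 1 and 11 without low-zinc replicate 3.

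The other complexes moved the same way with smaller counts. Of 37 genes of complexes II to IV 12 fell (32.4%) and none rose, with a median of -0.27, and of 23 genes of ATP synthase and its carriers 7 fell (30.4%), with a median of -0.16. UQCR10, a small subunit of complex III, read 9.14, 9.03 and 9.12 at high zinc, against 9.99, 9.56 and 10.00 at low zinc. ATP5MC1, 1 of the genes for the c-ring of ATP synthase, read 10.98, 10.98 and 11.14 at high zinc, against 12.08, 11.74 and 12.09 at low zinc. Both were lower on every high-zinc array (1.69-fold and 1.91-fold, adjusted p = 0.00916 and 0.00140). Cytochrome c (CYCS, -0.71), UQCC2 (-0.82), COX16 (-0.80), ATP5MC2 (-0.95) and ATP5F1D (-0.74) fell too. The catalytic ATP synthase subunits ATP5F1A (0.03) and ATP5F1B (0.12), the complex II subunit SDHA (-0.15) and the complex III core proteins UQCRC1 (-0.08) and UQCRC2 (-0.09) did not pass. The count for complexes II to IV was 4 without low-zinc replicate 1, 5 without high-zinc replicate 2 or low-zinc replicate 3 and 7 without high-zinc replicate 3. That for ATP synthase was 3 without low-zinc replicate 1 and 4 without high-zinc replicate 1 or low-zinc replicate 3.

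The ribosome inside mitochondria, which translates the respiratory chain proteins encoded there, fell in part. Of 76 measured proteins 17 fell (22.4%), none rose, 61 had a negative change and the median was -0.20. MRPL14 read 10.18, 9.82 and 9.90 at high zinc, against 10.78, 10.69 and 10.69 at low zinc. MRPL54 read 9.04, 9.07 and 9.28 at high zinc, against 10.27, 9.75 and 9.90 at low zinc. Both high-zinc groups lay below (1.68-fold and 1.80-fold, adjusted p = 0.00419 and 0.00682). MRPL41 (-0.65), MRPS24 (-0.62) and MRPL20 (-0.58) fell, whereas MRPL3 (0.18), MRPL37 (0.17) and MRPS35 (0.17) did not pass. The count was 11 without high-zinc replicate 3 and 10 without low-zinc replicate 1. Further mitochondrial genes stood nearer to the background. Of 28 genes of the TCA cycle and pyruvate dehydrogenase 4 fell (14.3%, against 9.39% of all features), the pyruvate carrier subunit MPC2 among them. CS (0.06), MDH2 (0.05) and OGDH (0.04) did not pass. The count of fallen TCA genes was 1 without high-zinc replicate 3 or low-zinc replicate 1 and 2 without high-zinc replicate 2, low-zinc replicate 2 or low-zinc replicate 3. Of 37 import and protease genes 4 rose and 3 fell (10.8% and 8.11%, against 8.62% and 9.39% of all features). Without low-zinc replicate 3 none did in either direction. Without high-zinc replicate 1, 2 or 3 or low-zinc replicate 1, 2 import genes rose and 0 to 1 fell. Of 67 cytosolic ribosomal proteins 8 fell (11.9%, near the 9.39% of all features) and none rose, with a median of -0.13 and 54 negative. The count of fallen ones was 4 to 5 without high-zinc replicate 2, high-zinc replicate 3 or low-zinc replicate 1. It was 14 without background correction, on the authors' log2 values and with the trend and robust fit, and 5 with no filter on dim probes or with the 2 groups compared alone.

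**Figure D4:**
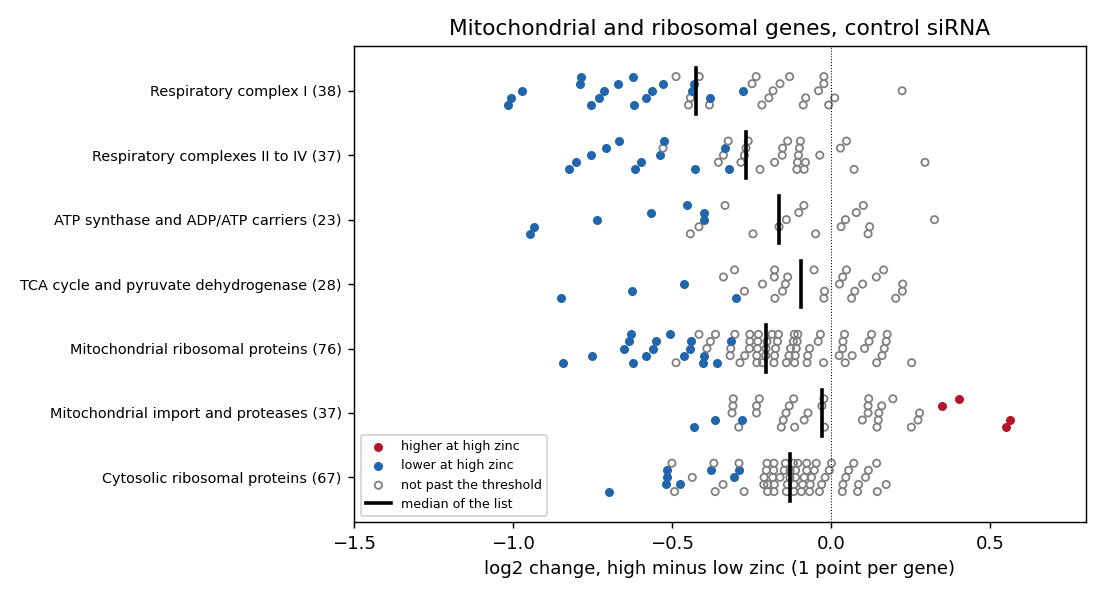
Log2 change (high minus low zinc, control siRNA) of each measured member of 7 lists, 1 point per gene, with the number measured in parentheses and the list median as a black bar. Filled points passed the threshold. Complex I has the lowest median (-0.42) and 18 of 38 members fallen, and the cytosolic ribosomal proteins stand at -0.13.

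Other lists had few calls, or calls in both directions. Of 40 SR and hnRNP splicing factors none passed the threshold in limma (median 0.06), 4 had an unadjusted p under 0.05, and 4 and 4 passed without background correction and with the trend and robust setting. Of 50 ribosome biogenesis factors 3 rose and 3 fell, and without high-zinc replicate 3, low-zinc replicate 1 or low-zinc replicate 3 none rose, and without high-zinc replicate 1 or low-zinc replicate 2 only 1 did. Proteasome genes had 4 higher and 7 lower of 35 (11.4% and 20%, against 8.62% and 9.39% of all features). PSMB8 (0.74), an immunoproteasome subunit, was higher and PSMD8 (-0.69) lower. Their counts were 1 higher and 2 lower without high-zinc replicate 3, 2 and 3 without low-zinc replicate 1, and 2 and 4 without low-zinc replicate 3, and 4 were lower without low-zinc replicate 2. PSMB8 was joined by its chromosomal neighbours of the antigen presentation region, the peptide transporters TAP1 and TAP2. TAP1 read 8.18, 7.84 and 8.14 at high zinc, against 6.98, 7.03 and 7.18 at low zinc, 1.99-fold higher at high zinc (adjusted p = 1.36e-04). The interferon-induced membrane proteins fell instead. IFITM3 read 10.59, 11.06 and 10.96 at high zinc, against 11.76, 11.82 and 12.05 at low zinc, 2.00-fold lower (adjusted p = 0.00183), and IFITM1 and IFITM2 fell by 1.40 and 0.75. Of 33 interferon-stimulated and MHC genes 6 rose (3 without high-zinc replicate 3) and 6 fell. These shares were 18.2% each, against 8.62% and 9.39% of all features. STAT3 (-0.08), MX1 (-0.21) and HLA-B (0.01) did not pass.

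Genes of copper and iron had few calls, in both directions. Beside ATP7B, the copper chaperone CCS, which loads superoxide dismutase, fell by 0.53, whereas the importer SLC31A1 (0.15) and SOD1 (-0.18) did not pass. Of 16 copper genes 4 fell (25%, against 9.39% of all features), a count that was 2 without low-zinc replicate 3. The prion protein gene PRNP (0.53) was the 1 that rose (6.25%, against 8.62% of all features). The transferrin receptor TFRC read 12.95, 12.77 and 12.98 at high zinc, against 12.25, 12.25 and 12.12 at low zinc, 1.62-fold higher at high zinc (adjusted p = 6.74e-04). ALAD, a zinc enzyme of haem synthesis, fell by 0.60 (a further probe, at -0.14, did not pass), the mitochondrial iron importer SLC25A37 by 0.68 and the ferrireductase STEAP3 by 0.69. SLC11A2 (0.20), SLC40A1 (0.05) and ferritin light chain FTL (0.05) did not pass. Of 27 iron and haem genes 2 rose (7.41%, against 8.62% of all features) and 5 fell (18.5%, against 9.39%).

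Where limma called no member of a list in 1 direction, members with an unadjusted p under 0.05 in that direction were few. There were 0 for complex I, 0 for complexes II to IV, 1 for mitochondrial ribosomal proteins, 0 for fatty acid oxidation and 1 for apolipoproteins among those higher at high zinc. Among those lower there were 1 for SRF and YAP targets, 0 for DNAJ genes, 1 for ATF4 stress regulators and 4 for replication genes.

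**Figure D5:**
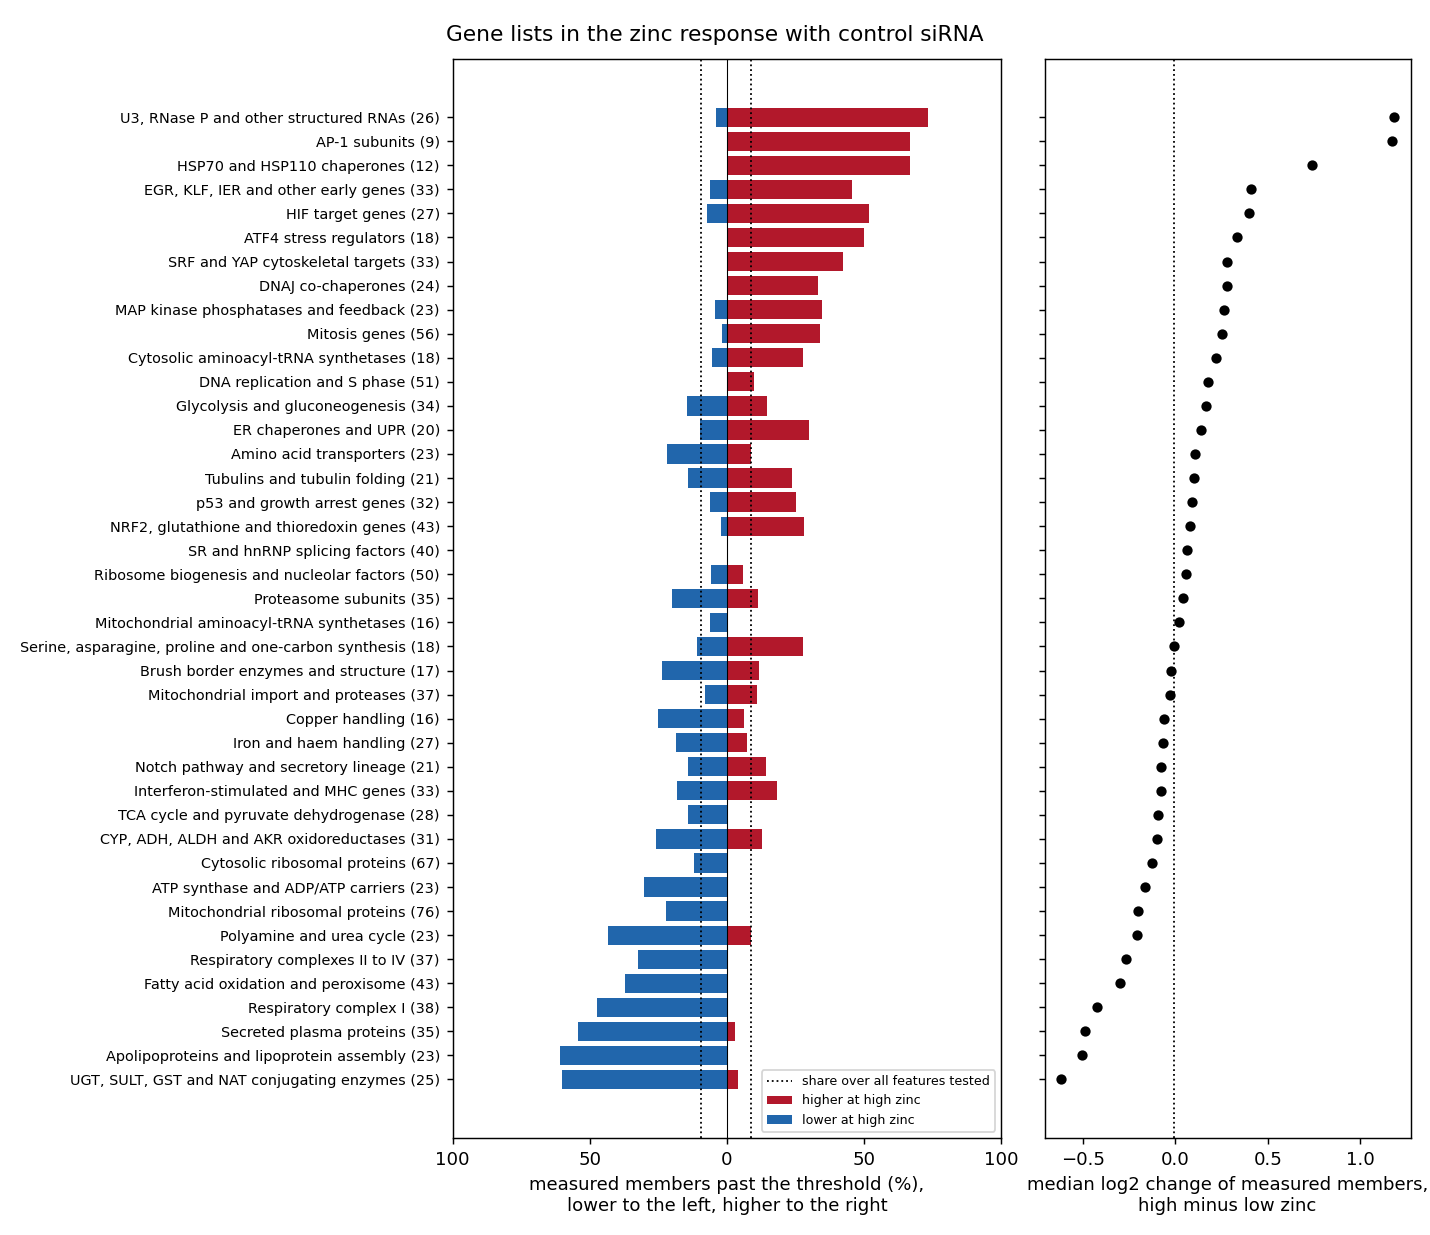
Gene lists described in the text, ordered by median change, with the number of measured members in parentheses. The left panel gives the percentage of measured members past the threshold, higher at high zinc to the right in red and lower to the left in blue, with the shares over all features (8.62% and 9.39%) as dotted lines, and the right panel gives the median log2 change of the members. Structured RNAs, AP-1 and HSP70 genes stand at the top and conjugating enzymes, apolipoproteins and plasma proteins at the bottom.

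The other 6 arrays, with MTF1 siRNA, share no array with this comparison and show the same genes in a second set. Both sets were fitted together with a shared spread per gene, so their calls are not independent of each other. With MTF1 siRNA 1028 features were higher at high zinc (7.20%) and 1216 lower (8.51%). Of the 1232 genes that rose with control siRNA 1096 (89%) had a positive change with MTF1 siRNA, where 47.8% of all features had one, and 569 (46.2%) passed there as risen and 4 as fallen. Of the 1341 that fell 1150 (85.8%) had a negative change and 560 (41.8%) passed as fallen, with 4 passing as risen. For the mid-sized changes of 1.5-fold to under 3-fold, 330 of 539 rises and 294 of 616 falls passed again. For the changes of 1.25-fold to under 1.5-fold, 171 of 587 rises and 239 of 674 falls did. Of these genes, chosen on the control siRNA arrays, the median of the mid-sized rises was 0.77 with control siRNA and 0.65 with MTF1 siRNA, and that of the mid-sized falls -0.73 and -0.47.

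List medians with control siRNA and with MTF1 siRNA stood side by side for the lists of lipid and detoxification genes, with -0.62 and -0.44 for conjugating enzymes, -0.51 and -0.55 for apolipoproteins, -0.49 and -0.72 for plasma proteins and -0.30 and -0.38 for fatty acid oxidation. SRF and YAP targets had 0.28 and 0.42, and HIF targets 0.40 and 0.26. Complex I had -0.42 and -0.12 with 18 and 0 members fallen, complexes II to IV -0.27 and -0.09 with 12 and 1, mitochondrial ribosomal proteins -0.20 and -0.01 with 17 and 2, and mitosis genes 0.25 and 0.16 with 19 and 5 risen. Whether these list values differ between the siRNAs was not tested, and no member of these lists passed the test of the difference itself. That test, the interaction of zinc and siRNA, passed for 3 of 14285 features (0.0210%). They were MT1B and MT1M, whose high-zinc levels were higher with control siRNA, and EMP3, a membrane protein related to EMP1. EMP3 read 8.49, 8.35 and 8.37 at high zinc, against 7.91, 7.86 and 7.86 at low zinc with control siRNA, a rise of 0.53 ± 0.10, against 1.57 ± 0.10 with MTF1 siRNA (difference -1.04, adjusted p = 0.0381). With 1 of the 6 control siRNA arrays left out MT1B passed each time, MT1M only without low-zinc replicate 3, and EMP3 not at all.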

How the data were processed

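The authors deposited, per the file headers, non-normalized intensity values with a detection p-value for each probe and array, and in a second table log2 values whose array medians are equal. The sources used here name neither their normalization nor the scanner software. From the deposited intensities, background was corrected and arrays quantile-normalized with neqc (limma 3.58.1, R 4.3.3, offset 16, background estimated from the detection p-values). Probes were kept when every array of some group had a detection p under 0.05. A gene could thus enter through the group where it is high alone. Each gene took the kept probe with the highest mean, and symbols were updated to RefSeq (30113 probes have 1 symbol, 8 several and 17202 none). limma's lmFit and eBayes were fitted to all 12 arrays with 1 mean per group, and p-values adjusted by Benjamini-Hochberg over 14285 features, with calls at an adjusted p under 0.05. Where a group was not above background on any array, a fold is a bound against the lowest signal of detected probes. Tested on simulated data with 14285 features for this comparison, the fit recovered 21 of 50 genes changed 1.5-fold, 41 of 50 changed 2-fold and 50 of 50 changed 3-fold. It also called 6 unchanged features. A far smaller share of features was changed there than the 18.0% called in the data, so recovery in the data can differ. The 15 rises and 15 falls described first are those of smallest p-value among non-overlapping changes of 1.5-fold to under 3-fold. From the gene lists, members past the threshold were named by size, keeping to those that also passed with each array left out in turn, a restriction set after their values were seen. The comparison, its members and the gene lists were chosen with earlier results of these data known. Alternatives were no background correction, median centring, the authors' log2 values, other probe filters, all probes, the replicate number as a block, fewer groups, a trend and robust fit, and each array left out. The number of arrays limits the precision.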

Additional observations from a re-analysis of the deposited data

Results flagged for a closer look

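For 3 genes the zinc response differed between control siRNA and MTF1 siRNA in limma's test of the difference itself. MT1B, a metallothionein, read 10.41, 10.72 and 10.91 at high zinc with control siRNA, against 7.77, 7.83 and 7.83 at high zinc with MTF1 siRNA. MT1B was detected on no low-zinc array with either siRNA, so its fitted difference of 2.74 (adjusted p = 4.22e-05) rests on background signals at low zinc and only the high-zinc levels are measured. MT1M, another metallothionein, read 11.23, 11.25 and 11.76 at high zinc with control siRNA, against 9.16, 9.15 and 8.99 at high zinc with MTF1 siRNA. MT1M was detected on 1 of 3 low-zinc arrays with control siRNA and on 0 with MTF1 siRNA, and its fitted difference of 1.78 (adjusted p = 0.0381) has the same limit. EMP3, measured on all arrays, rose by 0.53 with control siRNA and by 1.57 with MTF1 siRNA, a difference of -1.04 (adjusted p = 0.0381). MT1B also passed with the replicate block (adjusted p = 2.10e-04), with median centring and with each control siRNA array left out. MT1M and EMP3 did not pass with the replicate block (adjusted p = 0.14 for both) or with median centring (0.0518 for both). With 1 control siRNA array left out the adjusted p was 0.0494 to 0.179 for MT1M and 0.0577 to 0.179 for EMP3. Groups of 3 arrays are too small for a test of single outlying arrays.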

How the results depend on the processing

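Of the 2573 features past the threshold, 1232 higher and 1341 lower at high zinc, the count was 1540 (753 and 787) with no filter on dim probes. With 1 array left out it lay between 1607 and 2224, the higher between 786 and 1088 and the lower between 821 and 1142, lowest without low-zinc replicate 1. The other settings gave 1787 (the 2 groups compared alone) to 3141 (no background correction), within 1.5 times. Median centring gave 1259 higher and 1017 lower. The difference between the siRNAs passed for 3 features, for 1 with the replicate block, for 1 with median centring, and for 1 to 2 with 1 array left out. The cause of these shifts was not tested. With the replicate number as a block 2308 features passed. Same-numbered arrays of the 2 groups correlated at 0.144, 0.089 and 0.044 in their deviations from the group means, and each array correlated best with its own number, a hint from the data and not from the design. Slide as a block was not run, since the headers give no slide. Of 642 further probes of called genes 250 were called the same way, 317 had the same sign without a call and 75 the opposite sign. The depth of single beads is not known, and dim probes carry the least certain values.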
